A study of Mus musculus with 8 samples.

Results

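The genes described are 10 genes of the NRF2 response and of glutathione synthesis in mouse colonic epithelial cells given butyrate: Slc7a11, Gclc, Gclm, Gss, Gsr, Gpx1, Srxn1, Nqo1, Hmox1 and Nfe2l2. They were chosen by name, as every probe set whose only gene in the platform's annotation is one of the 10, which gave 15 of the 22690 probe sets of the array. Earlier results of these data were known when these genes, and the gene lists used below, were chosen. The cells were of the MCE301 line, a colonic epithelial line from mice that carry the SV40 large T-antigen in a temperature-sensitive form, and all arrays share that transgene. The groups are cells after 6, 12 and 24 h with 2 mM sodium butyrate, a product of bacterial fermentation in the colon and an inhibitor of histone deacetylases, and cells at 0 h, each measured on 2 of the 8 arrays. The later times have no untreated counterpart here, so butyrate and the hours in culture cannot be told apart. Separate cultures are not named for the 2 arrays of a group, and the p-values therefore rest on a spread that may be technical.

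Glutathione is a tripeptide that carries most of the reducing power of the cytosol. Cells make it from glutamate, cysteine and glycine: the xCT transporter brings in cystine, glutamate-cysteine ligase joins the first pair of amino acids in the step that limits the rate, and glutathione synthetase adds glycine. NRF2, encoded by Nfe2l2, is a transcription factor that KEAP1 holds ready for degradation in unstressed cells. When electrophiles or oxidants modify KEAP1, NRF2 pairs with small MAF proteins on antioxidant response elements and raises the genes of glutathione synthesis together with detoxifying enzymes such as NQO1. BACH1 competes with NRF2 at some of these elements, above all at Hmox1.

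The authors had scaled the arrays to a shared level, with a 2% trimmed mean of 500.2 on each of them. The ratio of 3′ to 5′ signal was 0.767 to 0.878 for Gapdh and 1.01 to 1.12 for Actb over the 8 arrays. Of 9 colonic epithelial markers, 7 passed the filter on low signals, while Vil1 and Cdx1 had mean signals of at most 31.1 and 5.4 at any time. The summed signal of the 9 was 69523 to 86402 at 24 h, against 42744 to 45797 at 0 h, and its part in the results below was not tested. The keratins Krt8, Krt18, Krt19 and Krt20 make up most of that sum, and Krt20 rose the most, from a mean of 1377 to 15293. Between 0 h and 24 h the mean of Epcam went from 4431 to 5134 and that of Cdh1 from 1150 to 1644. That of Cdx2 fell from 484.8 to 284.3. None of 7 fibroblast or 4 endothelial markers passed the filter, and of 5 immune markers only Cd68 did, so that the immune sum was 1237 to 1290 at 24 h, against 562 to 608 at 0 h, with Ptprc at a mean of at most 87.7. In RNA from whole cultures, fewer cells that express a gene and less RNA per cell cannot be told apart.

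RefSeq promoter windows (GRCm38.p6, 250 bases before to 50 after a transcription start) were at hand for 7 of the 10 genes: Slc7a11, Gclm, Gss, Gpx1, Srxn1, Nqo1 and Nfe2l2. Each was searched on both strands for the antioxidant response element core TGACNNNGC, the AP-1 element TGANTCA and the C/EBP-ATF response element TGATGNAA, which were found in 12.4%, 7.81% and 3.97% of all 32851 windows. The windows of Gclm and Slc7a11, whose signals ended low, and of Srxn1, whose signal ended high, are printed 5′ to 3′ on the gene's strand with the matches in capitals.
Slc7a11 (chr3:50443564-50443863, minus strand): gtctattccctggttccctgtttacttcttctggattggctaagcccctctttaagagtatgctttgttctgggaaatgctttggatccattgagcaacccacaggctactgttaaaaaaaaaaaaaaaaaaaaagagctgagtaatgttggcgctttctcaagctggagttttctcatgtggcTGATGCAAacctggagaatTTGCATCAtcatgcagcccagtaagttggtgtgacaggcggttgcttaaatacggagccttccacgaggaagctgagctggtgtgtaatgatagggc
Gclm (chr3:122245307-122245606, plus strand): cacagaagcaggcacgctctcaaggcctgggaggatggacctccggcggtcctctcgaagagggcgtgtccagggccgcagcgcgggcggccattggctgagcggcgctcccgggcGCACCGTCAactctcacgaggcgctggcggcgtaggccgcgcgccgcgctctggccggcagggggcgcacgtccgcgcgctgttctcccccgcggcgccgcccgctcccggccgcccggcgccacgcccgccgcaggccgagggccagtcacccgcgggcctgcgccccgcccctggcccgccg
Srxn1 (chr2:152105274-152105573, plus strand): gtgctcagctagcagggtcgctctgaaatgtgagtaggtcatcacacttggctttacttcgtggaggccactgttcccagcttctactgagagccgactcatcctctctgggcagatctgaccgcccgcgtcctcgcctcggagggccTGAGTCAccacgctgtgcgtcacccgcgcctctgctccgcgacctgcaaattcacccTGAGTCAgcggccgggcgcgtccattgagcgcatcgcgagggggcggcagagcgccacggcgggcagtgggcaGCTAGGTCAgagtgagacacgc
Counting from the transcription start as base 1, Slc7a11 held the C/EBP-ATF element at bases -66 to -59 and, in the opposite orientation, at -47 to -40. Gclm held the antioxidant response element core on the opposite strand at -134 to -126. Srxn1 held the AP-1 element at -102 to -96 and at -45 to -39 and the antioxidant response element core, on the opposite strand, at 29 to 37. In the Nfe2l2 window the antioxidant response element core stood at -240 to -232. None of the printed matches overlapped another, and the windows of Gss, Gpx1 and Nqo1 held none of the 3 letter patterns. A match describes the letters and is not evidence of binding. A window without a match says nothing about elements outside its 300 bases.

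Signals were compared as log2(signal + 32) in limma over the 7340 genes that passed the filter, each represented by its probe set with the highest mean, and genes with a Benjamini-Hochberg adjusted p below 0.05 count as called. Of the 10 genes, 9 were tested, and Slc7a11 did not pass the filter. Against 0 h, 1 was higher and 0 lower at 6 h, 3 were higher and 3 lower at 12 h, and 3 were higher and 4 lower at 24 h. Of all tested genes, 15.7% were called at 6 h (9.06% higher, 6.68% lower), 35.6% at 12 h (18.1% higher, 17.5% lower) and 48.1% at 24 h (24.6% higher, 23.5% lower), so the counts are to be read beside a broad response. The median log2 change of the 9 was -0.16 at 24 h, against 0.04 over all tested genes, and hid changes in both directions. At 24 h, Gclc and Gclm, both parts of glutamate-cysteine ligase, were lower with Gsr and Gpx1, while Gss, Nqo1 and Srxn1 were higher and Hmox1 and Nfe2l2 were not called.

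**Figure D1:**
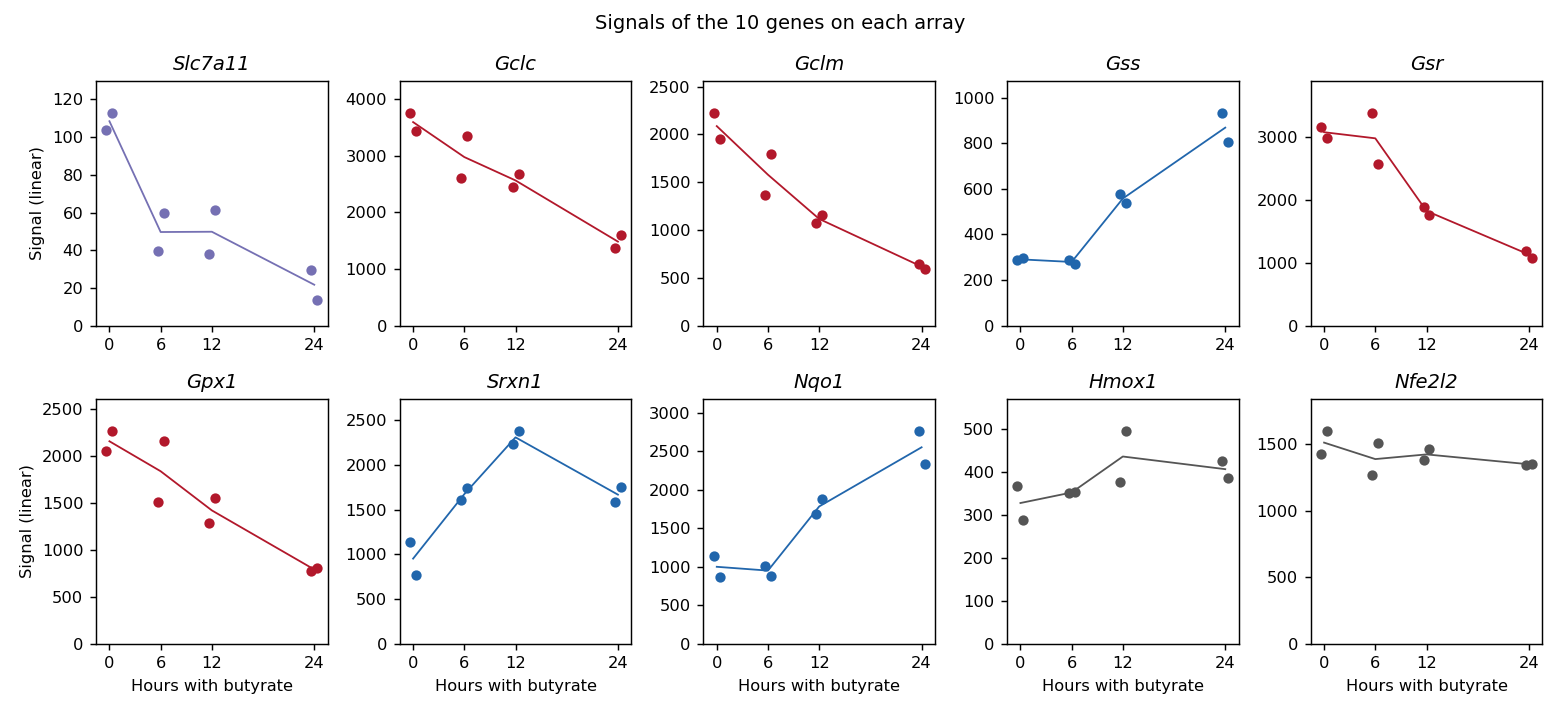
Signal (linear scale from 0) of each of the 10 genes against hours with butyrate, with a point for each of the 2 arrays of a time and a line through their means; genes called lower at 24 h are red, called higher blue, not called grey, and the untested Slc7a11 purple. Gclm lies at 588.7 and 647.0 at 24 h, below both of its 0 h arrays, and Gss at 803.5 and 932.4, above both.

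Slc7a11 encodes xCT, the light chain that exchanges cystine for glutamate. Its probe set (1420413_at) was dim, with signals of 104.0 and 112.8 at 0 h, 39.4 and 59.9 at 6 h, 38.2 and 61.4 at 12 h, and 29.6 and 13.8 at 24 h. Both arrays of each later time lay below both 0 h arrays, and those of 24 h were under 32, where a signal carries little information. With no filter on low signals, where 12393 genes were tested and 1.27%, 7.24% and 11.1% of them were called lower at 6, 12 and 24 h, its log2 change was -1.40 ± 0.23 (SE; limma adjusted p = 0.00461) at 24 h. In that fit it was -0.79 at both 6 h and 12 h, which was not called (adjusted p = 0.11 and 0.057). Slc3a2, which encodes the heavy chain that carries xCT to the membrane, was well measured, at 1325 and 1348 at 24 h, against 2474 and 2176.5 at 0 h (log2 change -0.78 ± 0.15, adjusted p = 0.0020). At 12 h Slc3a2 was also called lower (log2 change -0.58, adjusted p = 0.0135), but leaving out 0 h replicate 1, 12 h replicate 1 or 12 h replicate 2 ended that call (0.0914, 0.0522 and 0.0704).

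Gclc encodes the catalytic subunit of glutamate-cysteine ligase. Probe set 1424296_at had signals of 3758 and 3434 at 0 h, 2604 and 3352 at 6 h, 2457 and 2674 at 12 h, and 1373 and 1596 at 24 h. Both arrays of each later time were below both arrays of 0 h, with the lowest values at 24 h. The log2 change at 24 h was -1.26 ± 0.18 (adjusted p = 0.000269), or 2.40-fold lower, and it was -1.43 and -1.09 within replicate numbers 1 and 2. At 12 h the change of -0.48 ± 0.18 was not called (adjusted p = 0.0554), but was under 7 of the 17 alternative settings (0.0309 to 0.0476), the replicate number as a block among them (0.0321). A second probe set, 1455959_s_at, had signals of 817.9 and 949.3 at 24 h, against 1554 and 1946 at 0 h, a log2 change of -0.96 ± 0.19 (adjusted p = 0.00255 over 11505 probe sets).

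Gclm encodes the modifier subunit, which makes the ligase more efficient and less sensitive to inhibition by glutathione. Its signals (1418627_at) were 2225 and 1949 at 0 h, 1362 and 1795 at 6 h, 1072 and 1160.4 at 12 h, and 647.0 and 588.7 at 24 h. No 2 times overlapped, and each later time lay below the one before it. Gclm was 1.84-fold lower at 12 h than at 0 h (log2 change -0.88 ± 0.18, adjusted p = 0.00376) and 3.26-fold lower at 24 h (-1.70 ± 0.18, adjusted p = 4.21e-05), the widest range of time means among the 9 genes. The 6 h change was not called (-0.41 ± 0.18, adjusted p = 0.154). Of all tested genes, 2.64% had a 24 h change as low as that of Gclm or lower.

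Gss encodes glutathione synthetase, which carries out the second step, and its signal went the other way. Gss (1448273_at) had signals of 285.7 and 295.6 at 0 h, 289.2 and 269.1 at 6 h, 577.7 and 536.9 at 12 h, and 932.4 and 803.5 at 24 h. The arrays of 6 h overlapped those of 0 h, and both later times stood clear above them. Gss was 1.83-fold higher at 12 h (log2 change 0.87 ± 0.16, adjusted p = 0.00203) and 2.78-fold higher at 24 h (1.48 ± 0.16, adjusted p = 4.45e-05), while the 6 h change was -0.05 ± 0.16 (adjusted p = 0.867). At 24 h the change within replicate numbers 1 and 2 was 1.60 and 1.35. The calls for Gclm and Gss against 0 h at 12 h and 24 h held under all 17 alternative settings.

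Gsr encodes glutathione reductase, which returns oxidised glutathione to its reduced form with NADPH. Probe set 1421817_at had signals of 3170 and 2997 at 0 h, 3390.3 and 2581 at 6 h, 1889 and 1767 at 12 h, and 1196 and 1072 at 24 h. The 6 h arrays spanned those of 0 h, and the arrays of 12 h and 24 h lay below both. The log2 change was -0.74 ± 0.17 at 12 h (adjusted p = 0.00802) and -1.42 ± 0.17 at 24 h (adjusted p = 0.000119), or 2.67-fold lower. Leaving out 0 h replicate 1 or 12 h replicate 2 ended the 12 h call by a narrow margin (adjusted p = 0.0509 and 0.0502). The other probe set, 1421816_at, gave -0.89 at 12 h and -1.58 at 24 h.

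Gpx1 encodes the cytosolic glutathione peroxidase, a selenium enzyme that spends glutathione to reduce hydrogen peroxide. Its signals (1460671_at) were 2050 and 2267 at 0 h, 1514 and 2165 at 6 h, 1287 and 1557 at 12 h, and 773.6 and 810.1 at 24 h. The arrays of 6 h overlapped those of 0 h, and the arrays of 24 h lay closest together and below all others. Gpx1 was 2.66-fold lower at 24 h (log2 change -1.41 ± 0.20, adjusted p = 0.000257). At 12 h it was called lower (-0.60 ± 0.20, adjusted p = 0.0362), but not without any 1 of the 0 h or 12 h arrays (adjusted p = 0.0544 to 0.191), nor with no filter (0.103).

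Srxn1 encodes sulfiredoxin, which repairs overoxidised peroxiredoxins with ATP. The probe set with the highest mean, 1426875_s_at, had signals of 1139 and 764.4 at 0 h, 1602.5 and 1741 at 6 h, 2237 and 2376 at 12 h, and 1583 and 1749 at 24 h. All later arrays were above both 0 h arrays, the 0 h arrays were the furthest apart, and the highest values were those of 12 h. The log2 change was 0.82 ± 0.19 at 6 h (adjusted p = 0.0193), 1.28 ± 0.19 at 12 h (adjusted p = 0.000865) and 0.81 ± 0.19 at 24 h (adjusted p = 0.00615). Without 0 h replicate 2 the changes at 6 h and 24 h were 0.54 and 0.53 and neither was called (adjusted p = 0.134 and 0.0601). The 6 h call was also lost without 6 h replicate 1 (0.0566), 6 h replicate 2 (0.0856) or the filter (0.0811).

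Srxn1 has 4 probe sets, and 3 of them passed the filter. Those 3 were all called higher at 12 h and 24 h among the 11505 probe sets, with log2 changes of 1.28 to 2.00 at 12 h and 0.81 to 1.91 at 24 h. Probe set 1425351_at had signals of 1084 and 1107 at 24 h, against 190.1 and 370.8 at 0 h, and 1451680_at had 1664 and 1564 at 24 h, against 831.1 and 652.8 at 0 h. At 6 h neither of these passed the test (log2 changes of 0.43 and 0.54, adjusted p = 0.372 and 0.074). The fourth, 1419942_at, stayed dim at 85.3 to 180.8 on all arrays and was not tested.

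**Figure D2:**
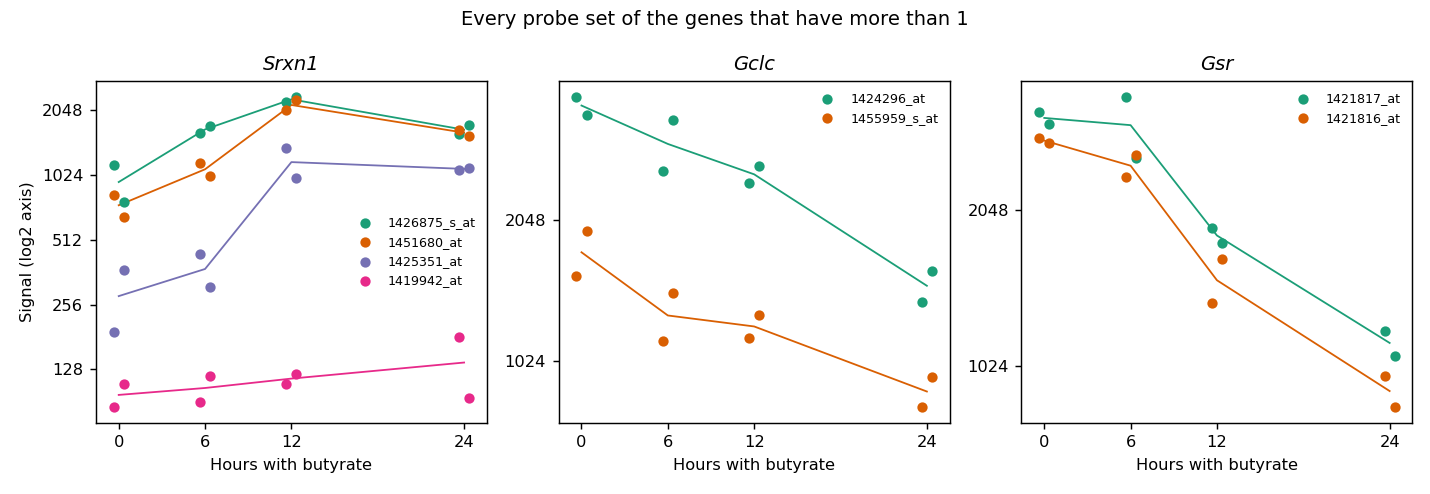
Signal (log2 axis) of every probe set of Srxn1, Gclc and Gsr against hours with butyrate, with a point for each of the 2 arrays of a time and a line through their means. The 3 brighter Srxn1 probe sets peak at 12 h, the dim 1419942_at stays between 85.3 and 180.8, and both probe sets of Gclc and of Gsr are lowest at 24 h.

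Nqo1 encodes NAD(P)H quinone dehydrogenase, a detoxifying enzyme often used as a gauge of NRF2 activity. Its signals (1423627_at) were 1137 and 863.3 at 0 h, 1016 and 885.1 at 6 h, 1688 and 1879.5 at 12 h, and 2763 and 2341 at 24 h. The arrays of 6 h lay between those of 0 h, and both later times stood above all of them. Nqo1 was 1.77-fold higher at 12 h (log2 change 0.83 ± 0.18, adjusted p = 0.00638) and 2.52-fold higher at 24 h (1.33 ± 0.18, adjusted p = 0.000252). The 12 h call was lost without 0 h replicate 2 (log2 change 0.63, adjusted p = 0.0589).

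Hmox1 encodes heme oxygenase 1, which breaks heme down to biliverdin, carbon monoxide and iron. Its signals (1448239_at) were 367.7 and 288.3 at 0 h, 352.2 and 352.8 at 6 h, 377.1 and 495.6 at 12 h, and 426.6 and 387.1 at 24 h. The 12 h and 24 h arrays lay above both 0 h arrays, the nearest by little. The log2 change was 0.38 at 12 h (95% interval -0.03 to 0.78, adjusted p = 0.134) and 0.29 at 24 h (-0.11 to 0.70, adjusted p = 0.214), neither called. Within replicate number 1 the 12 h change was 0.03, and within number 2 it was 0.72.

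Nfe2l2 (1416543_at) had the narrowest range of the 9 genes, with signals of 1426 and 1599 at 0 h, 1268 and 1508 at 6 h, 1381 and 1466 at 12 h, and 1347 and 1352 at 24 h. The arrays of 6 h and 12 h overlapped those of 0 h, and those of 24 h lay below them. The log2 change was -0.12 at 6 h, -0.08 at 12 h and -0.16 at 24 h (95% interval -0.51 to 0.20, adjusted p = 0.444), none called. NRF2 is regulated mainly through the stability of the protein, which these arrays do not measure.

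**Figure D3:**
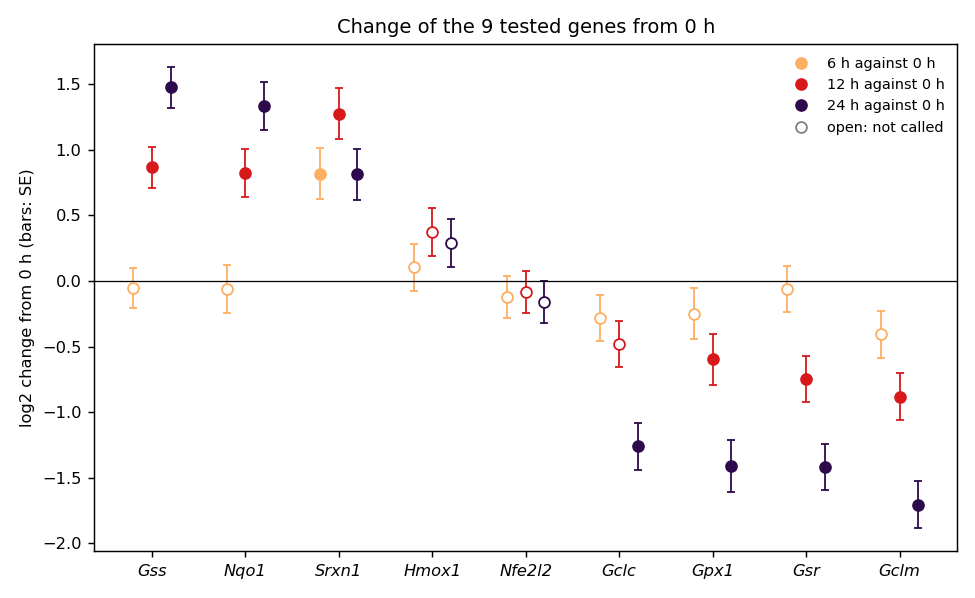
log2 change of the 9 tested genes at 6, 12 and 24 h against 0 h (points, with bars of 1 standard error of the fit; filled points passed the test, open points did not). Gss and Nqo1 stand at 1.48 and 1.33 at 24 h, Gclm, Gsr, Gpx1 and Gclc between -1.70 and -1.26, and Hmox1 and Nfe2l2 have open points at every time.

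Neighbouring times were compared as well. Between 6 h and 12 h, Gss (log2 change 0.92, adjusted p = 0.0147) and Nqo1 (0.89, adjusted p = 0.0302) were higher at 12 h, where 4.17% of all tested genes were called, 2.03% higher and 2.14% lower. Leaving out any 1 array of 6 h or 12 h ended both calls (adjusted p = 0.0572 to 0.157), as did dropping the filter or fitting only the 4 arrays compared (0.0539 to 0.133). For Gsr the log2 change of -0.69 did not pass the test (adjusted p = 0.0542), and passed it under 4 alternatives (0.0244 with the replicate block to 0.044 with the stricter filter). Srxn1 was not called by 1426875_s_at (0.46, adjusted p = 0.217). Its probe sets 1425351_at (1.57, adjusted p = 0.0217) and 1451680_at (0.97, adjusted p = 0.0227) were called higher at 12 h than at 6 h over all probe sets.

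Between 12 h and 24 h, Gclc (log2 change -0.78, adjusted p = 0.0302), Gclm (-0.82, 0.0245) and Gpx1 (-0.81, 0.0383) were lower at 24 h, where 5.40% of all tested genes were called, 3.58% lower and 1.81% higher. All 3 calls ended when any 1 array of 12 h or 24 h was left out (adjusted p = 0.0774 to 0.239) and with no filter (0.108 to 0.148). Those of Gclc and Gpx1 were also lost without either 0 h array (0.0512 and 0.0616), and that of Gpx1 with quantile normalization (0.0549) or over all named probe sets (0.0505). The second Gclc probe set, 1455959_s_at, was not called (-0.45, adjusted p = 0.246 over all probe sets). Gss (0.61, adjusted p = 0.0501) and Gsr (-0.68, adjusted p = 0.0514) were not called, and were under 5 and 6 of the alternatives, the replicate block included (0.0267 and 0.021). Srxn1 was lower at 24 h than at 12 h on both arrays, a log2 change of -0.46 that was not called (adjusted p = 0.223).

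Over the 8 arrays, the tested genes whose log2 signals were most like those of Gclm were Gspt1 (Pearson r = 0.996), Ckap2 (0.994) and Alyref (0.994). Those most like Nfe2l2 were Eif5a (0.962), Rps29 (0.932) and Vash2 (0.932). The values are the highest over 7340 genes searched. The arrays share 4 times, so those for Gclm describe a shared time course. For Nfe2l2 no change was called, and its time means ranged over 0.16 on the log2 scale. Its replicates 1 and 2 differed by -0.16 at 0 h and -0.24 at 6 h, so its values cannot be read as a shared time course.

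Of 16 listed regulators and partners of NRF2, 13 were tested. At 24 h, 3 were higher and 1 was lower, beside 24.6% and 23.5% of all tested genes. Their median log2 change was 0.17, against 0.04 over all tested genes. Sqstm1, whose product p62 binds KEAP1, was at 16102 and 16990 at 24 h, against 8315 and 7444 at 0 h (log2 change 1.07 ± 0.16, adjusted p = 0.000489), with no overlap between the times. Of the small MAF genes, Mafk was 2.04-fold higher at 24 h (adjusted p = 0.000621), and Maff was not called (log2 change 0.40, adjusted p = 0.204). The brighter Mafg probe set, 1448916_at, was 2.26-fold lower (adjusted p = 0.000932), while the dimmer 1434054_at did not show this, with signals of 148.5 and 247.1 at 24 h, against 195.3 and 252.2 at 0 h (log2 change -0.18, adjusted p = 0.543 over all probe sets). The direction of Mafg therefore rests on 1 of its 2 probe sets. Bach1 was higher at 24 h (log2 change 0.63, adjusted p = 0.0138), but not when 0 h replicate 2 (0.0975) or 24 h replicate 1 (0.0955) was left out, and its second probe set, 1449311_at, had a log2 change of 0.15 (adjusted p = 0.499).

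The probe sets of Keap1 differed. The brighter, 1450746_at, had signals of 426.9 and 592 at 0 h, 275.8 and 293.5 at 6 h, 287.9 and 247.5 at 12 h, and 320.8 and 386.1 at 24 h, all later arrays being below both 0 h arrays. The other, 1450747_at, had 287.1 and 318.3 at 0 h, 216.1 and 265.5 at 6 h, 231.3 and 291 at 12 h, and 300.4 and 292.9 at 24 h, so that 12 h and 24 h overlapped 0 h. It was not called at any time, with log2 changes of -0.30, -0.20 and -0.02 (adjusted p = 0.31, 0.423 and 0.92 over all probe sets). By the brighter probe set, Keap1 was called lower at 6 h (log2 change -0.76, adjusted p = 0.023) and 12 h (-0.84, adjusted p = 0.00663) and not at 24 h (-0.48, adjusted p = 0.0579, and 0.0288 to 0.0467 under 3 alternatives, of which the replicate block gave 0.0389). The 6 h call was lost without 0 h replicate 2 (0.164), 6 h replicate 1 (0.0937) or 6 h replicate 2 (0.0682), and the 12 h call without 0 h replicate 2 (0.0614). Mafk (log2 change 0.84) and Mafg (-0.89) were the other 2 of the 13 called at 6 h. At that time 1 of the 13 was higher and 2 were lower, beside 9.06% and 6.68% of all tested genes. The 6 h call of Mafk was lost without 0 h replicate 1 (log2 change 0.76). That of Mafg was lost without 0 h replicate 1 (-0.58), 6 h replicate 1 (-0.90) or 6 h replicate 2 (-0.87). The dimmer Mafg probe set, 1434054_at, went the other way at 6 h (0.17, adjusted p = 0.672 over all probe sets). Mafk, Sqstm1, Mafg and Bach1 were called at 12 h too (log2 changes of 0.88, 0.86, -1.02 and 0.50). With Keap1, 3 of the 13 were higher and 2 lower at 12 h, beside 18.1% and 17.5% of all tested genes. The 12 h call of Bach1 was lost without any 1 of the 0 h, 12 h or 24 h arrays (log2 changes of 0.39 to 0.62). The dimmer probe sets of Mafg (-0.24, adjusted p = 0.444) and Bach1 (0.20, adjusted p = 0.412) were not called at 12 h over all probe sets.

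Of 29 other listed NRF2 targets, 20 were tested. At 24 h, 5 were higher and 7 lower, beside 24.6% and 23.5% of all tested genes. Their median log2 change was -0.23, against 0.04 over all tested genes. Blvrb, a reductase of biliverdin and flavins, was at 1208 and 1900 at 24 h, against 237.8 and 318.3 at 0 h, and was 5.03-fold higher (log2 change 2.33 ± 0.23, adjusted p = 3.3e-05). Its change was already called at 6 h (0.99, adjusted p = 0.0184, and 0.131 and 0.0942 without 0 h replicate 1 or 6 h replicate 2) and at 12 h (1.73, adjusted p = 0.000416). The aldo-keto reductase genes Akr1b8 and Akr1c13 were 2.67-fold and 2.08-fold higher at 24 h. Abcc3, a pump for organic anion conjugates, was at 623.5 and 715.1 at 24 h, against 2232 and 1732 at 0 h (log2 change -1.51 ± 0.17, adjusted p = 8.09e-05), and the malic enzyme Me1, a source of NADPH, was 2.12-fold lower. Leaving out 0 h replicate 1 or 24 h replicate 2 reduced the higher genes at 24 h to 3. Txnrd1, the cytosolic thioredoxin reductase and a common NRF2 target, had a log2 change of 0.09 at 24 h (95% interval -0.27 to 0.46, adjusted p = 0.675). Of its 2 other probe sets, 1424487_x_at was higher at 12 h (0.69, adjusted p = 0.0175 over all probe sets) and neither was called at 24 h.

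At 12 h, 2 of these 20 targets were higher and 4 lower, and at 6 h Blvrb was the only one called. Of all tested genes, 18.1% were higher and 17.5% lower at 12 h, and 15.7% were called at 6 h. Akr1c13 was higher at 12 h (log2 change 0.50, adjusted p = 0.0357), but not when any 1 array of 0 h or 12 h was left out (0.0603 to 0.191). Abcc3 was lower at 12 h (-0.68, adjusted p = 0.0123), not called without 0 h replicate 1 (log2 change -0.50) or 12 h replicate 1 (-0.60). Me1 was lower too (-0.77, adjusted p = 0.00586), though its dimmer probe set, 1430307_a_at, was not called (-0.44, adjusted p = 0.0557 over all probe sets). Leaving out 0 h replicate 1 gave 1 higher and 1 lower at 12 h, and leaving out 0 h replicate 2 or 12 h replicate 2 gave 1 higher and 2 lower in each case. With the replicate block, or with a trend and robust eBayes, 4 were higher.

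Of 28 other listed genes of glutathione metabolism, 15 were tested. At 24 h, 6 were higher and 2 lower, beside 24.6% and 23.5% of all tested genes. Their median log2 change was 0.38, against 0.04 over all tested genes. Ggct, the cyclotransferase that acts on gamma-glutamyl amino acids in glutathione breakdown, was at 312.6 and 305 at 24 h, against 80.1 and 92.1 at 0 h (log2 change 1.53 ± 0.16, adjusted p = 3.66e-05). Glrx, the cytosolic glutaredoxin, which removes glutathione from proteins, was at 671.7 and 685.8 at 24 h, against 193.9 and 231.3 at 0 h (1.54 ± 0.19, adjusted p = 0.000122). By these probe sets the arrays of the 2 times were far apart for both genes. A second Ggct probe set, 1429090_at, was dim and did not pass the filter. It did not show the rise, with 15.1 and 49.3 at 24 h, against 45.4 and 58.3 at 0 h. Cth, which makes cysteine from cystathionine, was at 192.6 and 236.6 at 24 h, against 47 and 73.2 at 0 h (1.43 ± 0.19, adjusted p = 0.000211). Ggct and Cth passed the filter only through their 12 h and 24 h arrays, where they were high. A gene that fell from a like level at 0 h would not have been tested, so the counts of this list favour rises. Chac2, which encodes a glutathione-degrading enzyme, was lower (-0.88, adjusted p = 0.0215). That call was lost when any 1 array of 0 h or 24 h was left out (log2 changes of -0.99 to -0.77). Chac1 went the other way, at 739.9 and 716.4 at 24 h, against 475.7 and 468.5 at 0 h (0.59, adjusted p = 0.0104 over all probe sets).

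Some genes of this list were already higher at the earliest time. At 6 h, 4 of the 15 were higher and 0 lower, and at 12 h 7 were higher and 1, Slc3a2, was lower. Of all tested genes, 9.06% were higher and 6.68% lower at 6 h, and 18.1% and 17.5% at 12 h. Glrx was called at 6 h (log2 change 0.90, adjusted p = 0.0115) and 12 h (1.64, adjusted p = 0.000192), as was Hagh, the glyoxalase that releases glutathione from its lactoyl ester (0.75 and 1.33, adjusted p = 0.0188 and 0.000394). The dimmer Glrx probe set, 1416593_at, was not refitted with arrays left out. It was called higher at 6 h (1.60, adjusted p = 0.00152 over all probe sets) and 12 h (1.94, 0.000155). Hagh probe sets 1424171_a_at (0.65, 0.272) and 1437519_x_at (0.64, 0.0682) were called at 12 h and not at 6 h. Cth was called at 12 h (1.51, adjusted p = 0.000306) and at 6 h only with the replicate block (0.49, adjusted p = 0.0342, and 0.115 without it). Cth and Ggct, both among the 7 higher at 12 h, passed the filter only through their 12 h and 24 h arrays. The 12 h count therefore favours rises, and the 12 h call of Cth is no independent support for one. The 6 h calls were lost without 0 h replicate 1 (0.0839) or 6 h replicate 1 (0.0711) for Glrx and without 0 h replicate 1 (0.0586), 0 h replicate 2 (0.114) or 6 h replicate 2 (0.112) for Hagh. Leaving out 0 h replicate 1 left 0 higher genes at 6 h, leaving out 6 h replicate 1 left 2, and either other array of 0 h or 6 h left 1.

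Of 22 listed antioxidant enzymes outside glutathione synthesis, 17 were tested. At 24 h, 3 were higher, 4 lower and 10 not called, where 24.6% of all tested genes were higher and 23.5% lower. Their median log2 change was 0.21, against 0.04 over all tested genes. Msrb1, a selenium enzyme that reduces oxidised methionine, was at 1642 and 1542 at 24 h, against 638 and 586.9 at 0 h, and was higher at 6 h, 12 h and 24 h (log2 changes of 0.98, 1.40 and 1.33, adjusted p = 0.004, 0.000208 and 0.00012). Msrb1 and the peroxidase Gpx1, both selenoprotein genes, thus differed in direction. Txnrd3 was lower at 12 h and 24 h (-0.81 and -0.84, adjusted p = 0.00369 and 0.00195), as was its probe set 1423869_s_at, while 1423868_at was not called (-0.42 and -0.32). Among the peroxiredoxins, Prdx2 (0.65, adjusted p = 0.0104) and Prdx4 (-0.51, adjusted p = 0.0203) were called at 24 h by their brightest probe sets, Prdx2 not without 0 h replicate 1 (0.0718) or 24 h replicate 2 (0.084), and Prdx4 not without 0 h replicate 1 (0.129), 24 h replicate 1 (0.0926) or 24 h replicate 2 (0.0548). A second Prdx2 probe set, 1430979_a_at, did not show the rise, with 779.7 and 1341 at 24 h, against 1040.3 and 1293 at 0 h (log2 change -0.18, adjusted p = 0.671 over all probe sets). Of the 2 other Prdx4 probe sets, 1416166_a_at was called lower at 24 h (-0.60) and 1435731_x_at was not (-0.49). The count of lower enzymes at 24 h was 1 without 0 h replicate 1 or 24 h replicate 1 and 2 without the other 0 h or 24 h array.

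At 6 h, 2 of the 17 were higher and 0 lower, and at 12 h 3 were higher and 1 was lower. Of all tested genes, 9.06% were higher and 6.68% lower at 6 h, and 18.1% and 17.5% at 12 h. Sesn1, a sestrin gene, was called higher at 6 h (log2 change 0.61, adjusted p = 0.0346) and 12 h (0.48, adjusted p = 0.0459), and Sod2, the mitochondrial superoxide dismutase, at 12 h (0.49, adjusted p = 0.0401), though not by its probe set 1417193_at (0.24, adjusted p = 0.332). The 6 h call of Sesn1 was lost without any 1 of the 0 h or 6 h arrays (0.0511 to 0.215), and the 12 h call without any of the 8 arrays except 0 h replicate 1 (0.0539 to 0.27). The call of Sod2 was lost without any 1 of the 0 h or 12 h arrays (0.0534 to 0.223), and the count of higher enzymes at 12 h was then as low as 1. With no filter on low signals, the 6 h calls of Blvrb, Glrx, Hagh, Keap1, Mafg and Sesn1 were lost (adjusted p = 0.0592 to 0.109). So were the 12 h calls of Akr1c13, Bach1, Sesn1 and Sod2 (0.0921 to 0.121) and the 24 h calls of Chac2 (0.0734) and Prdx4 (0.0538).

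**Figure D4:**
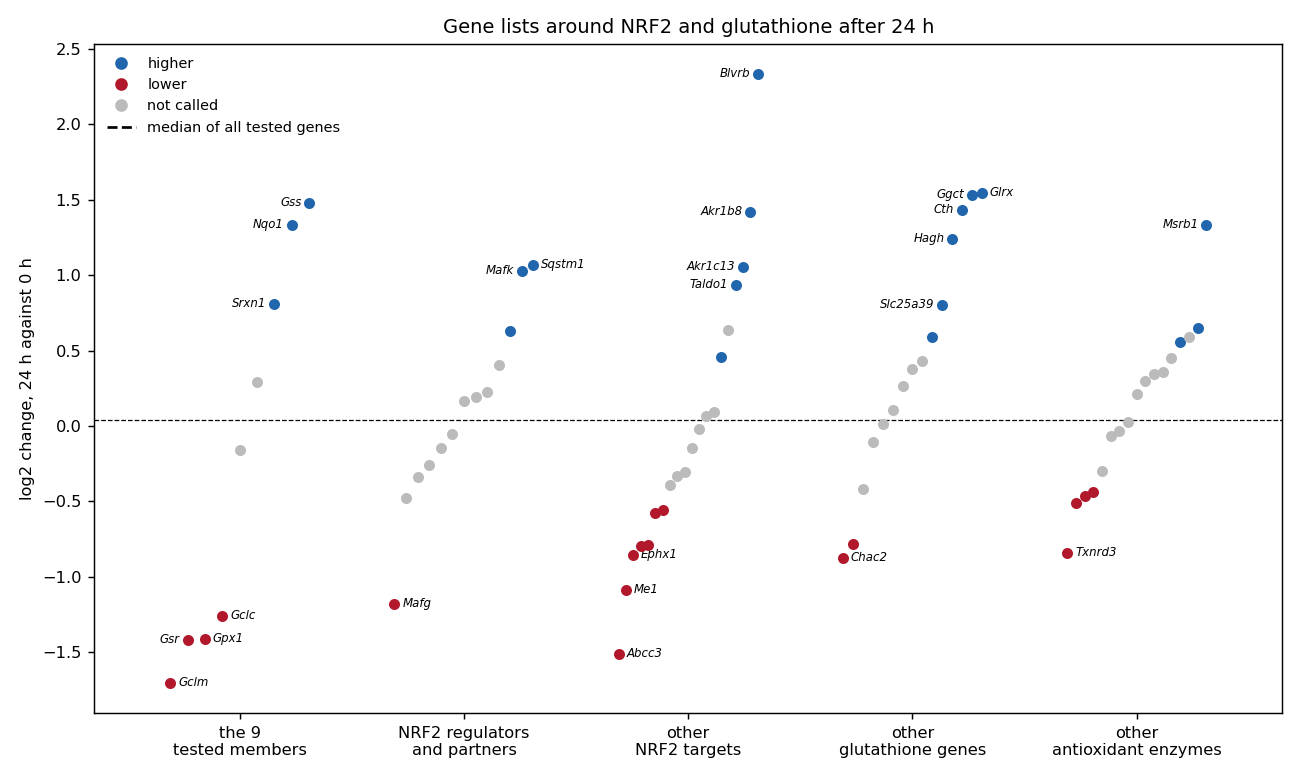
log2 change at 24 h against 0 h of each tested gene of 5 lists, sorted within a list; blue points were called higher, red lower and grey not called, the dashed line is the median of all tested genes (0.04), and the larger called changes carry their gene names. Every list has points on both sides of the line, from Blvrb at 2.33 to Gclm at -1.70.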

How the data were processed

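The deposited table holds 1 linear signal intensity for each of 22690 probe sets on each of 8 arrays, from total RNA labelled with phycoerythrin and read on Affymetrix Mouse Expression Array 430A chips, per the labels and the series design. The authors' summary of probes into these deposited intensities is not given by the sources used here. Their trimmed means are equal, so the authors had scaled the arrays, and no further scaling was applied. Probe sets were named through the platform annotation, with symbols checked by Entrez identifier against RefSeq (GRCm38.p6; 20351 of 20380 matched); only those with 1 gene were named. The filter asked for at least 2 of the 8 arrays above the overall median signal (144.7), which left 11505 named probe sets, and the highest-mean one represented each of 7340 genes.

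Fold changes are those of log2(signal + 32), which understates changes at low signals. One limma model (3.58.1, in R 4.3.3; lmFit and eBayes, residual df 4, prior df 6.37) covered the 8 arrays and was tested on simulated data, and p-values were adjusted over all 7340 genes of a comparison. The number of arrays, 2 per time, limits the precision. The ± after a log2 change is the standard error of the fit. Genes outside the 10 were named by rule: in each of 4 lists and at each time, the 2 largest called rises and falls against 0 h, with Keap1, Bach1, Slc3a2 and Txnrd1. Chac1, given beside Chac2, was not named by that rule and was not followed under the alternative settings. The members and lists were chosen with earlier results of these data known.

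The times share replicate numbers. Over genes, the log2 difference of replicate 1 and replicate 2 at 1 time correlated with that at another (r = 0.125 to 0.382 over the pairs of times), which met the rule for pairs, on the evidence of the signals alone, since the labels state no pairing. The model had no term for the pairs; a fit with the replicate number as a block was 1 of 17 alternatives. Linear signals of the 2 arrays of a time had r = 0.975 to 0.990 over probe sets (not independent points) and shared identical signals for no more than 0.198% of probe sets. Promoter letters are those of RefSeq.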

Additional observations from a re-analysis of the deposited data

How the results depend on the processing

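The 9 tested genes gave 45 log2 changes over 5 comparisons and 765 values under 17 alternatives. Direction and call stayed the same for 689 of the values; 46 lost the call, 22 gained it and 8 changed sign, all without a call. The 24 h calls of Gclc, Gclm, Gsr, Gpx1, Gss and Nqo1 against 0 h held under all 17. With 1 array left out, the lone array of a time was assumed to vary like those of the other times. The 8 values, and 5 of other genes named, changed sign with 1 array left out. They were at 6 h those of Nqo1 (0.131 and 0.035, range -0.254 to 0.131), Hmox1 (-0.0559 to 0.264), Gpx1 (-0.501 to 0.00586), Gsr (-0.253 to 0.136), Abcc3 (-0.224 to 0.137), Prdx4 (-0.127 to 0.0827), Bach1 (-0.0514 and -0.0699, range -0.0699 to 0.20) and Txnrd1 (-0.00194 to 0.293). For 12 h against 6 h they were those of Nfe2l2 (-0.0823 and -0.0018, range -0.0823 to 0.162), and at 24 h against 12 h those of Hmox1 (-0.267 to 0.0998).

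With 1 array left out, the 10 genes gave 0 to 1 higher at 6 h, 2 to 3 higher and 1 to 4 lower at 12 h, and 2 to 3 higher and 4 lower at 24 h, where all genes gave 1332 to 1837 higher and 1261 to 1745 lower. For 12 h against 6 h they gave 0 to 2 higher, and for 24 h against 12 h 0 to 4 lower. All genes gave 299 to 610 higher and 160 to 461 lower at 6 h, and 879 to 1352 higher and 779 to 1310 lower at 12 h. For 12 h against 6 h all genes gave 24 to 106 higher and 13 to 111 lower, and for 24 h against 12 h 26 to 135 higher and 77 to 271 lower.

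With no filter, 272 genes were higher and 158 lower at 6 h, with 0 of the 10 higher; 0 were higher and 1 lower for 12 h against 6 h, with 0 of the 10 higher, beside 909 and 767 at an unadjusted p under 0.05; and 29 were higher and 88 lower for 24 h against 12 h, with 0 of the 10 lower. The stricter filter (all 8 arrays above the median) gave 86 genes higher for 12 h against 6 h and 80 higher for 24 h against 12 h. With the replicate block, 267 genes were higher and 314 lower for 12 h against 6 h and 249 higher for 24 h against 12 h; besides the values given with the genes, Akr1b8 was called at 12 h (adjusted p = 0.0469; a trend and robust eBayes gave 0.043), and the block changed no other call of a named gene. With the block or with that eBayes setting, the regulators called lower were 4 at 12 h, and with the block 2 at 24 h. With only the 4 arrays compared, 32 genes were higher and 14 lower for 12 h against 6 h, and 0 of the 10 were higher. For 12 h against 6 h, 1 of the 10 was lower with a pseudocount of 64, the stricter filter, the replicate block, and a trend and robust eBayes. For 24 h against 12 h, 1 of the 10 was higher with those settings and with quantile normalization. The looser element TGANNNNGC was in 41.3% of promoter windows and in 4 of the 7 windows of the genes described. In Srxn1, its match at -45 to -37 covered the AP-1 element at -45 to -39. The number of arrays limits all of these values.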
